A study of Mus musculus with 2 samples.

Results

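The 9 genes described here encode 4 secreted ligands of the vascular endothelial growth factor (VEGF) family (Vegfa, Vegfb, Vegfc and Pgf), 3 receptor tyrosine kinases (Flt1, Kdr and Flt4) and 2 neuropilin co-receptors (Nrp1 and Nrp2). They were taken by gene symbol, whatever their values, from the 32589 genes counted in nuclei of mouse hearts, and each symbol matched a gene. Together they held 25235 UMIs (unique molecular identifiers, each a counted RNA molecule) in control nuclei and 19562 in nuclei after PD-1 inhibitor. The hearts came from male C57BL/6 mice that were 8 weeks old when treatment began. The paper's scheme of the mouse model has the animals killed on day 28 of the treatment cycle. The PD-1 inhibitor was an anti-mouse PD-1 antibody (InVivoPlus), injected intraperitoneally at 5 mg/kg on days 1 and 14 of a cycle of 28 days, and the control mice were injected with PBS at the same times. PD-1 is an inhibitory receptor of T cells, and antibodies that block it are used as cancer immunotherapy. Each group was 1 single-nucleus RNA sequencing (snRNA-seq) library, and the sources used here do not give the number of hearts behind it. A difference between the libraries therefore has no replicate check, treatment and library cannot be told apart, and all intervals below cover counting error only.

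VEGF-A, the main growth factor of blood vessels, is released by parenchymal cells such as cardiomyocytes and binds Kdr (VEGFR2), which carries most of its signal into endothelial cells (ECs), and Flt1 (VEGFR1), which binds it tightly but signals weakly. VEGF-B and placental growth factor (Pgf) bind Flt1, and VEGF-C binds Flt4 (VEGFR3), the receptor on which lymphatic vessels depend, and, once processed, Kdr. Nrp1 and Nrp2 lack a kinase domain, bind VEGF ligands beside these receptors and also bind class 3 semaphorins.

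The deposited libraries held 10197 barcodes with 13177525 UMIs (control) and 7967 barcodes with 10875248 UMIs (PD-1 inhibitor), and 48 barcodes occurred in both. After 83 and 15 barcodes were removed for few genes or much mitochondrial RNA and 592 and 308 as doublets, 9522 and 7644 nuclei with a median of 1012 and 1055 UMIs were clustered without the 9 genes. Of 22 clusters, 21 were named from markers that did not include the 9 genes, and 1 cluster led by cell cycle genes was not. The ECs numbered 2812 and 2512 nuclei, fibroblasts 2474 and 1969, cardiomyocytes 1273 and 1082, mononuclear phagocytes (MPs) 1260 and 884, mural cells 593 and 423, and mesothelial cells 481 and 462. T cells (237 and 192), B cells (175 and 80), adipocytes (154 and 16) and glial cells (31 and 10) were fewer. Levels are given as UMIs per 1000000 UMIs summed over the nuclei of a type (CPM), control first. The share of a gene's UMIs held by a type is taken over all barcodes, so UMIs of removed barcodes and of the unnamed cluster belong to no type. Differences are log2 ratios of PD-1 inhibitor over control. A gene was called higher or lower where this ratio reached 0.5 in size and the gene had 100 UMIs or more over both libraries, and the share of all genes so called is printed beside the counts of the 9.

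**Figure D1:**
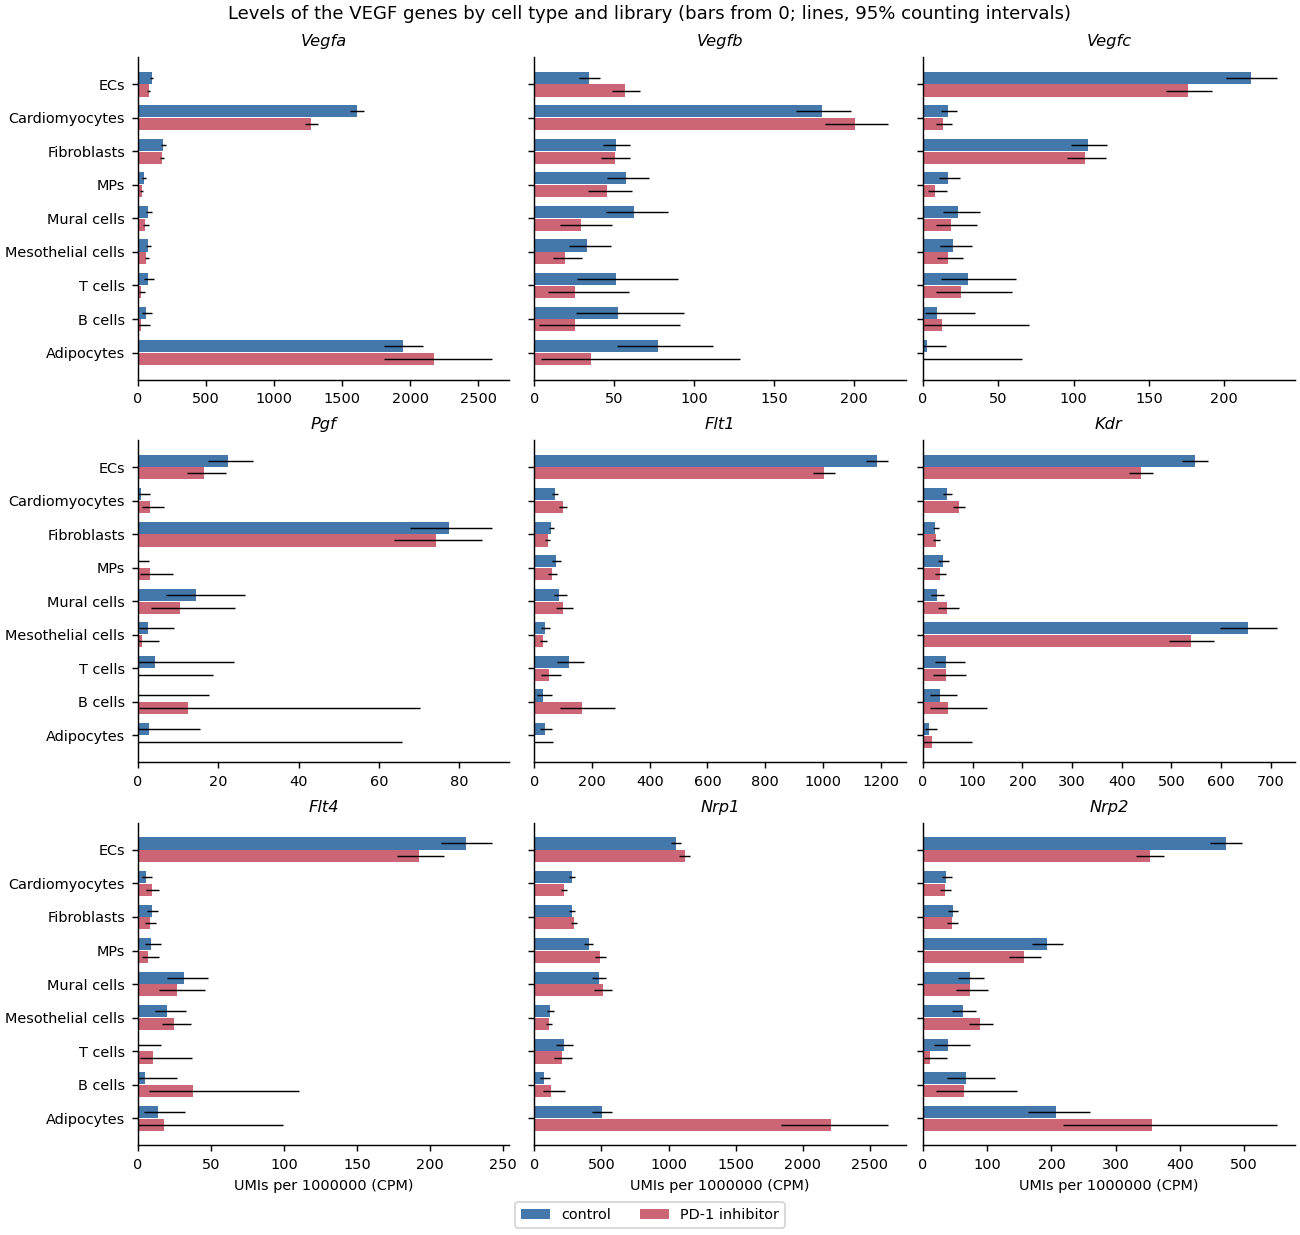
Level (horizontal axis, CPM, bars from 0, a panel and a scale of its own for each gene) of the 9 genes in each cell type except glial cells, for control and PD-1 inhibitor, with exact 95% Poisson intervals as lines. Vegfa stood highest in adipocytes and cardiomyocytes, Flt1, Flt4 and Vegfc in ECs, Kdr in mesothelial cells and ECs, and Pgf in fibroblasts.

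Vegfa (chr17:46016993-46032369 of GRCm38, minus strand) was a transcript of muscle and fat in this heart. Its level was 1947 CPM (95% interval 1806-2097) and 2176 CPM (1807-2599) in adipocytes and 1611 CPM (1561-1663) and 1275 CPM (1226-1325) in cardiomyocytes, the contractile cells. In the control library adipocytes lay above cardiomyocytes by 0.27 on the log2 scale (0.16 to 0.39). Cardiomyocytes supplied 63.8% and 70.9% of all Vegfa UMIs because they were far more numerous, adipocytes 11.5% and 3.37%, and fibroblasts 9.19% and 12.2%. In ECs, the cells that respond to the ligand, it stood at 102 CPM (90.9-114) and 79.4 CPM (69.5-90.4). A Vegfa UMI was seen in 62.7% of cardiomyocytes (exact binomial interval 60.0-65.4%) and 55.9% (52.9-58.9%), against 5.14% and 2.50% of B cells, which are not known as a source of it. The median depth was 1404 and 1429.5 UMIs in these cardiomyocytes and 999 and 773 in B cells; with every nucleus thinned to 500 UMIs, the cardiomyocyte shares were 40.0% and 35.0%.

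Vegfb (chr19:6982473-6987651, minus strand), a ligand of Flt1 best known from tissues rich in mitochondria, had its highest level in cardiomyocytes. They held 180 and 201 CPM and 42.4% and 49.0% of its UMIs. Its level in ECs was 33.9 CPM (27.6-41.2) and 56.6 CPM (48.3-66.0). A Vegfb UMI was found in 2.84% (2.26-3.53%) and 4.78% (3.98-5.69%) of ECs, with 5.71% (2.77-10.3%) and 2.50% (0.304-8.74%) in B cells. The EC share thus exceeded that of B cells in neither library beyond counting error and was not separable from background. The B cell shares, from 175 and 80 nuclei, fix that background only loosely. The median depth of ECs was 898 and 951 UMIs. In cardiomyocytes the shares were 23.0% and 23.9%.

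Vegfc (chr8:54077606-54187096, plus strand), the lymphatic growth factor, was by contrast an endothelial and fibroblast transcript. ECs held 57.3% and 56.9% of its UMIs and fibroblasts 28.9% and 29.9%, at 218 and 176 CPM in ECs and 110 and 108 CPM in fibroblasts. Pgf (chr12:85166635-85177790, minus strand) was a fibroblast transcript of low level, with 231 and 184 UMIs there, or 77.4 and 74.1 CPM. Fibroblasts gave 66.8% and 70.8% of the Pgf UMIs and ECs 19.4% and 18.5%. Of fibroblasts, 6.55% (5.61-7.60%) and 6.50% (5.45-7.68%) had a Pgf UMI, against 0 of 175 B cells in the control library, which allows a share of up to 1.71%, and 1.25% of the 80 B cells in the other.

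Flt1 (chr5:147561604-147726011, minus strand) was carried by ECs, which held 79.1% and 79.9% of its UMIs at 1187 CPM (1148-1227) and 1003 CPM (967-1040). A UMI of it was present in 53.0% (51.1-54.8%) and 50.8% (48.8-52.7%) of ECs, against 3.43% and 10% of B cells; after thinning these shares were 36.5% and 34.0% in ECs and 1.71% and 5.00% in B cells. Flt4 (chr11:49609263-49652739, plus strand) was as restricted, with 79.3% and 81.6% of its UMIs in ECs at 224 CPM (208-242) and 193 CPM (177-209). Kdr (chr5:75932827-75978458, minus strand) had a second site outside the vessels. Its level in mesothelial cells, which line the surface of the heart, was 653 CPM (598-712) and 539 CPM (495-585), above the 547 CPM (521-574) and 439 CPM (415-464) of ECs in each library. ECs still gave 61.0% and 56.7% of the Kdr UMIs because they were more numerous, and mesothelial cells 19.4% and 24.9%.

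Nrp1 (chr8:128358604-128503363, plus strand) was found in many cell types. ECs stood at 1054 CPM (1017-1091) and 1119 CPM (1081-1159) and held 49.2% and 56.2% of its UMIs, while mural cells, which wrap the vessels, had 478 and 510 CPM, MPs 403 and 491 CPM and fibroblasts 279 and 293 CPM. Nrp2 (chr1:62703285-62818695, plus strand) stood at 471 CPM (447-496) and 353 CPM (332-375) in ECs, which held 61.6% and 62.7% of its UMIs. Adipocytes had 208 CPM (163-260) and 357 CPM (218-551) of Nrp2, from 75 and 20 UMIs, and MPs 193 and 157 CPM. The few glial cells of the control library had 456 CPM of it from 16 UMIs, and the 10 glial nuclei of the PD-1 inhibitor library 0 UMIs, which allows up to 211 CPM.

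Each UMI is a counted molecule, so levels in CPM can be set against each other between genes without a length. In control ECs Flt1 (1187 CPM) and Nrp1 (1054 CPM) stood highest by CPM, and Vegfc stood at 218 CPM. Values per length are given beside these. Per kb of merged exon in control ECs, Nrp1 stood at 108 CPM, Vegfc at 88.9, Flt1 at 87.9, Kdr at 60.6, Nrp2 at 39.8, Flt4 at 27.3, Vegfa at 23.8, Vegfb at 21.1 and Pgf at 7.75. Nuclear RNA also holds introns, and per kb of the whole gene span the order began with Kdr (12.0 CPM per kb), Nrp1 (7.28) and Flt1 (7.22), while Vegfc came last (1.99). Vegfc and Kdr thus changed place with the length used, and Nrp1 and Flt1 were among the highest by both.

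Within ECs the receptors divided among 5 subtypes, each called by its markers. Capillary-like ECs were 35.1% and 27.6% of ECs, endocardial-like ECs, the lining of the chambers, 39.5% and 52.9%, valve-like ECs 13.7% and 10.03%, lymphatic-like ECs 8.36% and 6.37%, and arterial-like ECs 3.27% and 3.11%. Flt1 was highest in capillary-like ECs, at 1751 CPM (1668-1838) and 1705 CPM (1607-1807), and was not separable there from arterial-like ECs in the control library (1602 CPM). Kdr was also highest in capillary-like ECs, at 1087 CPM (1022-1156) and 1023 CPM (947-1103), followed in the control library by lymphatic-like (660 CPM), arterial-like (299) and endocardial-like ECs (271), the last pair not separable, and by valve-like ECs (163). Flt4 marked lymphatic-like ECs. They held 1703 CPM (1549-1868) and 1811 CPM (1633-2004) of it, against 82.6 and 87.7 CPM in capillary-like ECs, and a Flt4 UMI was present in 69.8% (63.5-75.6%) and 72.5% (64.9-79.3%) of their nuclei.

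The co-receptors followed the same divide. Nrp1 stood at 1509 and 1369 CPM in capillary-like, 1140 and 1312 CPM in endocardial-like and 53.1 and 38.6 CPM in lymphatic-like ECs, the last from 14 and 8 UMIs. Nrp2 was highest in lymphatic-like ECs, at 1232 and 1367 CPM, then in capillary-like ECs, at 798 and 714 CPM. Lymphatic-like ECs also held little Flt1, at 102 and 19.3 CPM from 27 and 4 UMIs. The ligand of Flt4 lay in other vessels. Vegfc was highest in arterial-like ECs, at 1090 CPM (899-1311) and 1106 CPM (913-1328), and next in capillary-like ECs, at 431 and 396 CPM. In lymphatic-like ECs not 1 Vegfc UMI was counted in 235 and 160 nuclei, which allows up to 11.4 and 14.5 CPM (3 counts per library).

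**Figure D2:**
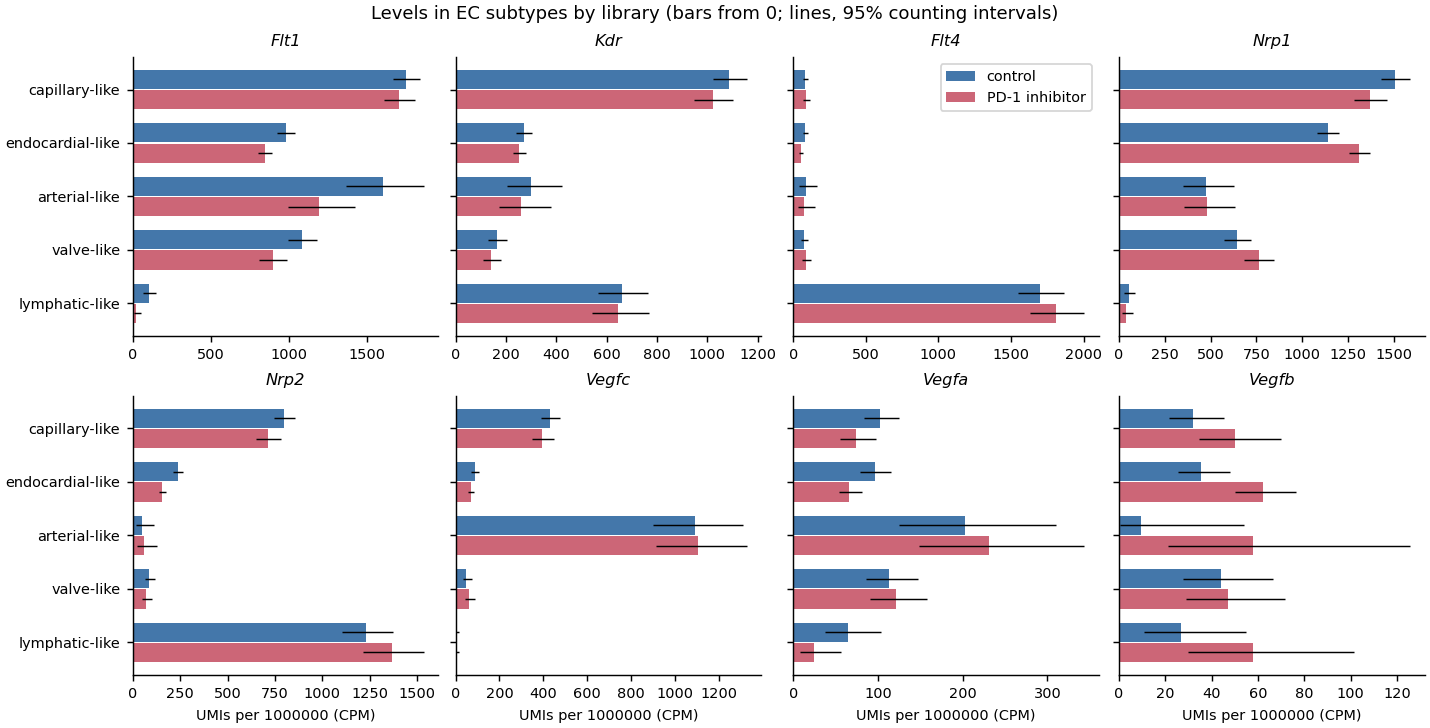
Level (horizontal axis, CPM, bars from 0, a scale of its own for each gene) of all the genes but Pgf in the 5 EC subtypes of each library, with exact 95% Poisson intervals as lines. Flt4 and Nrp2 peak in lymphatic-like ECs, Flt1, Kdr and Nrp1 in capillary-like ECs of the control library, and Vegfc in arterial-like ECs.

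Receptors were also counted in the same nuclei. Flt1 and Nrp1 UMIs were found together in 39.5% and 36.8% of capillary-like ECs. Flt1 and Kdr UMIs were found together in 33.1% (30.2-36.1%) and 31.6% (28.2-35.2%) of capillary-like ECs. Flt4 and Nrp2 occurred together in 43.0% (36.6-49.6%) and 48.8% (40.8-56.8%) of lymphatic-like ECs, and Kdr and Flt4 in 32.8% and 36.3%. The products of the single shares were 37.5% and 35.5% for Flt1 with Nrp1, 31.9% and 30.2% for Flt1 with Kdr, 39.8% and 44.0% for Flt4 with Nrp2, and 30.3% and 33.5% for Kdr with Flt4. Each lay within the counting interval of the share seen. These shares depend on depth, since a gene can be present without a UMI. For Flt1 with Kdr and Flt4 with Nrp2, the intervals of the libraries overlapped.

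The promoter sequences of a ligand of the cardiomyocytes and of both receptors that bind it are shown to compare their elements. They come from RefSeq on GRCm38.p6, whose table of 32851 promoters (250 bases before to 50 after a start site) held all 9 genes. Only the bases before the start that lie outside annotated exons are printed, 5′ to 3′ on the gene's strand. Capitals mark matches, on either strand, to the GC box (GGGCGG, the reverse complement of CCGCCC), the TATA box (TATAAA) and the cyclic AMP response element (CRE, TGACGTCA), elements that were picked after the sequences had been seen.
Vegfa, chr17:46032378-46032627, minus strand: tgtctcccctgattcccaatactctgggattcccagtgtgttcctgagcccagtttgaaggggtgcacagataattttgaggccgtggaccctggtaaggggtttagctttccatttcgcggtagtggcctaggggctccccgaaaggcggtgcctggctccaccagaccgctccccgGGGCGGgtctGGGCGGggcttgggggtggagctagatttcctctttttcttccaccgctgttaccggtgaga
Flt1, chr5:147726012-147726261, minus strand: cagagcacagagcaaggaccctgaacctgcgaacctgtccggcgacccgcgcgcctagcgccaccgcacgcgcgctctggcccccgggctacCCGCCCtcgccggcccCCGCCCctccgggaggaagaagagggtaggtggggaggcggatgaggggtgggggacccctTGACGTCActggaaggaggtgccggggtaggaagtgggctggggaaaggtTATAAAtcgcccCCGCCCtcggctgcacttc
Kdr, chr5:75978459-75978705, minus strand: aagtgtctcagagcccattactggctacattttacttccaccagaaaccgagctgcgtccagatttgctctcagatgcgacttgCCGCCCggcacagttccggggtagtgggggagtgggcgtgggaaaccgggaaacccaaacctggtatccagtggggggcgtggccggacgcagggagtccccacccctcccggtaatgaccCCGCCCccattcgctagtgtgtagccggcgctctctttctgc
Flt1 had a TATA box at base -31 from its start, a CRE at -81 and GC boxes at -158, -142 and -19. The Vegfa and Kdr promoters had GC boxes, at -72 and -62 and at -166 and -45, and neither of the other elements. Among all promoters, 35.7% held a GC box, 13.6% a TATA box and 1.79% a CRE. The first promoter of each of the 9 genes held at least 1 GC box. The E-box CAGGTG, present in 20.2% of all promoters, was in those of Pgf and Flt4 and at the second start of Vegfa, and the E-box CAGCTG (16.3%) only in the second Pgf promoter. The hypoxia core ACGTG (19.6%) was found only at an internal second start of Vegfa, and the ETS motif CCGGAAG (8.86%) in none. Such matches are letters in a window and do not show binding.

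Over all barcodes Vegfa differed most between the libraries. Vegfa stood at 462 and 333 CPM, which gives -0.47 (-0.53 to -0.41) as log2 ratio. Without adipocytes, which were few after PD-1 inhibitor, it was 420 and 324 CPM, or -0.38 (-0.44 to -0.32). Nrp2 was lower by a smaller ratio, -0.21 (-0.30 to -0.11), and Nrp1 higher, 0.13 (0.08 to 0.18). The other 6 lay between -0.13 and 0.02. None of the 9 was called, against 5.88% of 13106 genes called higher and 5.12% called lower.

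In ECs 7 of the 9 genes had lower levels after PD-1 inhibitor. Kdr stood at 547 and 439 CPM, a ratio of -0.32 (-0.43 to -0.21), or -0.052 without nuclei holding markers of another type, Nrp2 had -0.42 (-0.53 to -0.30), and Flt1 -0.24 (-0.31 to -0.17). For Flt4 it was -0.22 (-0.38 to -0.06), for Vegfc -0.31 (-0.48 to -0.14), for Vegfa -0.36 (-0.62 to -0.11) and for Pgf, with 67 and 48 UMIs, -0.44 (-1.01 to 0.12). Nrp1 was the receptor gene that was not lower, at 0.09 (0.02 to 0.16), and at 0.56 in the 268 and 163 ECs with hardly any marker UMIs of another type. Vegfb was higher at 0.74 (0.37 to 1.11), from 101 and 164 UMIs. It was the only one called, and its share of ECs was not separable from background above. So 1 of 9 was called higher and 0 lower, where 6.73% of 8976 genes were called higher and 5.1% lower. The median ratio of the 9 was -0.31 and that of all these genes 0.003.

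**Figure D3:**
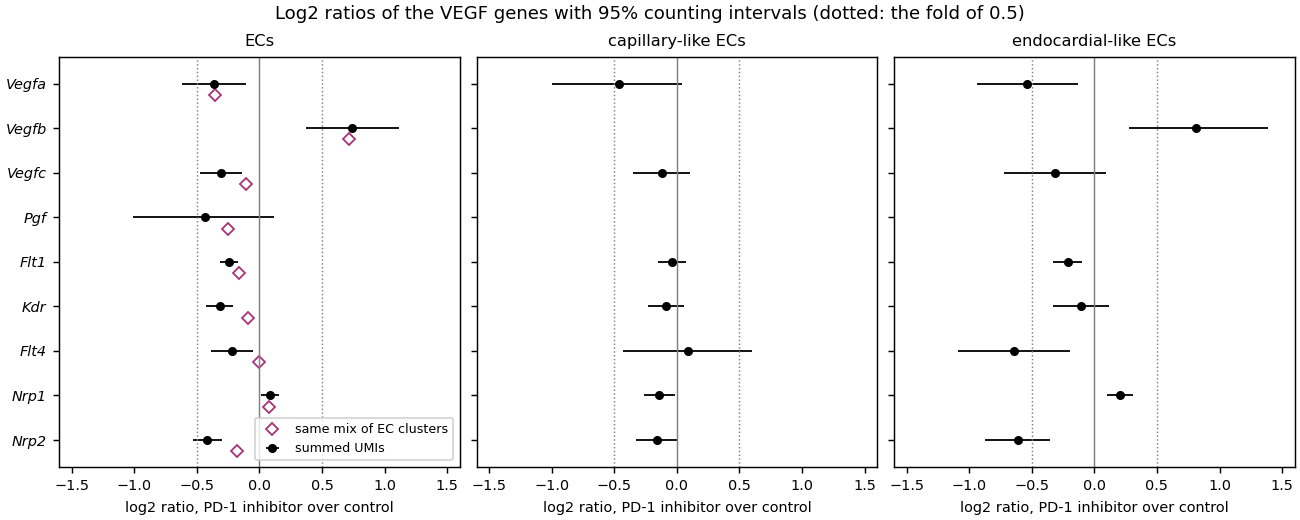
Log2 ratio of PD-1 inhibitor over control (horizontal axis) in ECs, capillary-like ECs and endocardial-like ECs for genes with enough UMIs. Points are summed UMIs with exact 95% intervals for counting error, diamonds the ratio with the same mix of EC clusters, and dotted lines the fold of 0.5. In all ECs, Kdr, Flt1, Flt4, Vegfc, Vegfa and Nrp2 lie below 0 with their intervals, and Vegfb and Nrp1 above it.

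Part of the lower receptor levels moved with the mix of subtypes. The PD-1 inhibitor library held fewer capillary-like ECs, rich in Flt1, Kdr and Nrp2, and more endocardial-like ECs. With the same mix of clusters in both libraries, the ratios were -0.16 for Flt1, -0.10 for Kdr, -0.01 for Flt4, -0.11 for Vegfc and -0.18 for Nrp2, while Vegfa (-0.36), Vegfb (0.71) and Nrp1 (0.08) stayed near their first values. Within capillary-like ECs, Flt1 stood at -0.04 (-0.15 to 0.07) and Kdr at -0.09 (-0.23 to 0.05), so neither differed beyond counting error. Nrp1, the co-receptor, was -0.14 (-0.26 to -0.02) and Nrp2 -0.16 (-0.33 to 0.01) there. None of the 7 genes tested in capillary-like ECs was called, with 8.54% of 3945 genes called higher and 8.64% lower.

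Endocardial-like ECs showed larger differences. Nrp2 stood at 237 CPM (210-267) and 155 CPM (136-176), a ratio of -0.61 (-0.87 to -0.35), and Flt4 at 82.5 CPM (66.8-101) and 52.8 CPM (41.7-65.9), a ratio of -0.64 (-1.09 to -0.20). B cells held 4.77 CPM of Flt4 from 1 UMI and 37.8 CPM from 3 UMIs, a background that so few UMIs fix only loosely. Vegfa was 96.2 and 66.3 CPM, or -0.54 (-0.94 to -0.13), with a UMI in 8.46% (6.89-10.3%) and 6.32% (5.07-7.77%) of nuclei against 5.14% (2.38-9.54%) and 2.50% (0.304-8.74%) of B cells, so that its share was not separable from theirs. Flt1 stood at 982 and 846 CPM, or -0.21 (-0.33 to -0.10). Both Nrp2 and Flt4 have their highest levels in lymphatic-like ECs, where no loss was seen: Flt4 had a ratio of 0.09 (-0.11 to 0.29) and Nrp2 0.15 (-0.09 to 0.38). In endocardial-like ECs Vegfb was higher, at 35.2 CPM (25.3-47.8) and 62.3 CPM (50.2-76.4), or 0.81 (0.28 to 1.39). Nrp1 had 0.20 (0.10 to 0.30), or 1.03 without nuclei holding markers of another type, which kept only 82 of 1111 and 82 of 1329 nuclei. Of 8 genes tested, 1 was called higher and 3 lower, with Vegfb and Vegfa among them, against 7.67% and 5.65% of 5895 genes. After thinning, 1 gene was called lower and 0 higher. Genes that held under 100 UMIs after thinning were not counted, so these counts need not be out of the same 8 genes. They do not show whether the other calls held at equal depth, and the share of all genes called after thinning was not counted. The difference between subtypes was not tested.

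The other subtypes gave fewer UMIs. In lymphatic-like ECs 3 genes could be tested and 0 were called (11% of 909 genes were called higher and 13.5% lower). In arterial-like ECs Vegfc had a ratio of 0.02 (-0.37 to 0.41), or 0.67 after thinning, and Flt1 one of -0.42 (-0.77 to -0.08), or -0.00085 after thinning, with 2 tested and 0 called (11.6% and 10.8% of 232 genes). In valve-like ECs Flt1 stood at 1084 and 897 CPM, or -0.27 (-0.46 to -0.08), and Nrp1 at 644 and 763 CPM, or 0.24 (0.02 to 0.47), with 4 tested and 0 called (6.35% and 7.05% of 2284 genes). Flt1 was thus lower with its whole interval in endocardial-like, arterial-like and valve-like ECs, and in lymphatic-like ECs at -2.26 (-4.38 to -0.88) from 27 and 4 UMIs, under the minimum of 100. In capillary-like ECs its interval held 0.

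The EC ratios also ran with gene length over all genes, split by span into 5 groups of equal size. In the group with the shortest spans (median 5.86 kb), which holds Vegfb, the median log2 ratio was 0.22 and 17.0% of genes were called higher. In the group with the longest spans (median 148 kb), which holds Vegfc, Flt1, Nrp1 and Nrp2, it was -0.18, with 1.28% called higher and 10.9% lower. Kdr and Flt4 belong to the group below it, with a median of -0.06, and Vegfa and Pgf to the group above the shortest, with 0.09. Set against these medians, Vegfb and Nrp1 lay above, Flt1 lay within 0.1, and Nrp2, Kdr, Flt4, Vegfc, Vegfa and Pgf lay below by more than that. Some markers of other types moved too. The sum of 10 fibroblast markers in ECs was 2739 and 3802 CPM (8 of 10 higher). Dcn (1282 and 2134 CPM) and Lum (220 and 390 CPM) moved most, and Abca8a and Fbln1 were lower. Cardiomyocyte markers summed to 4075 and 4266 CPM (7 of 10 higher) and 8 adipocyte markers to 52.7 and 8.29 CPM (1 of 8 higher, with 1 and 2 at 0). The sums were 400 and 403 CPM for MP, 287 and 266 for mural and 176 and 174 for mesothelial markers. They were 50.7 and 21.4 CPM for T cell, 73.5 and 59.7 for B cell and 14.4 and 19.0 for glial markers. The part of length and of free RNA in the ratios was not tested.

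**Figure D4:**
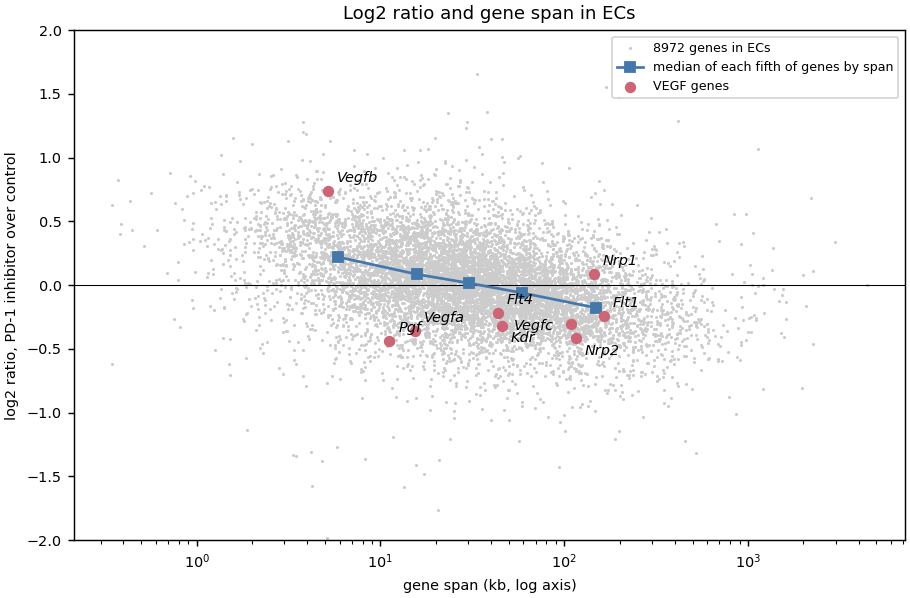
Log2 ratio of PD-1 inhibitor over control in ECs (vertical axis) against gene span in kb (log axis) for 8972 genes, with the 9 genes named; 5 genes lie outside the range drawn, and squares mark the median of each of the 5 groups by span. Short genes lie higher than long ones, and Vegfb is a short gene.

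In cardiomyocytes, the main source of Vegfa, its ratio was -0.34 (-0.41 to -0.27). Most of this moved with the clusters. The cardiomyocyte cluster low in mitochondrial RNA, 58.5% of control and 48.8% of PD-1 inhibitor cardiomyocytes, held 2231 CPM (2158-2305) and 2106 CPM (2020-2195) of Vegfa, a ratio of -0.08 (-0.16 to -0.01). Cardiomyocytes led by Acta1 and Xirp2, 38.3% and 46.9%, held 349 and 322 CPM, a ratio of -0.11 (-0.36 to 0.14), and were richer in mitochondrial RNA (medians of 9.52% and 8.52% of a nucleus's UMIs, against 0.363% and 0.688%). Atrial-like cardiomyocytes had 630 and 436 CPM. With the same mix of clusters the Vegfa ratio was -0.09.

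Vegfb ran the other way across these clusters, at 126 and 116 CPM in the cluster low in mitochondrial RNA and 296 and 304 CPM in the Acta1 cluster. Its cardiomyocyte ratio was 0.16 (-0.04 to 0.36), -0.02 with the same mix, and 0.57 in the 336 and 217 nuclei left without those holding markers of another type. The spread of Vegfa against Vegfb between the clusters was thus far larger than any difference between the libraries within them.

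**Figure D5:**
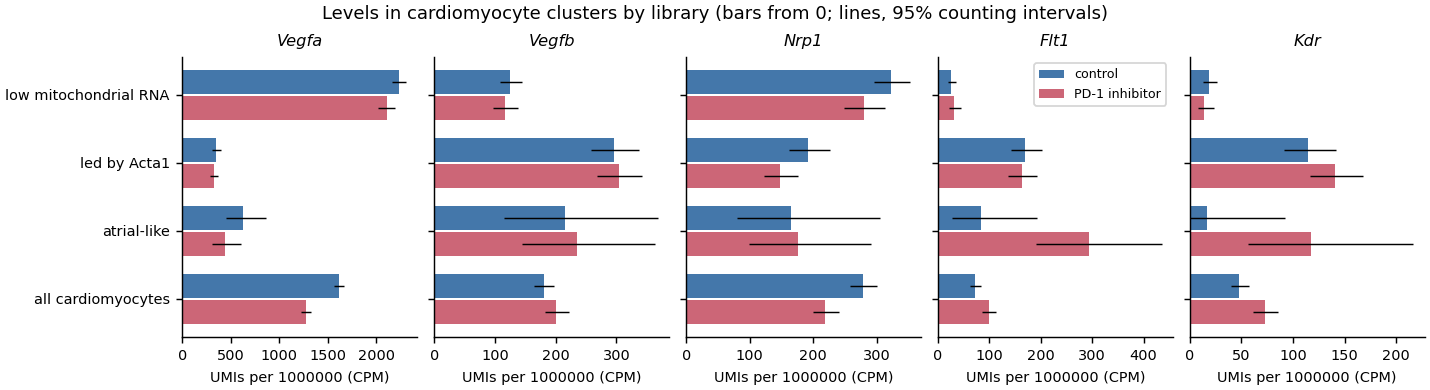
Level (horizontal axis, CPM, bars from 0, a scale of its own for each gene) of Vegfa, Vegfb, Nrp1, Flt1 and Kdr in the 3 cardiomyocyte clusters and in all cardiomyocytes of each library, with exact 95% Poisson intervals as lines. Vegfa is highest in the cluster low in mitochondrial RNA and Vegfb in the cluster led by Acta1 and Xirp2, in both libraries.

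The endothelial receptors were seen at low level in cardiomyocytes, higher after PD-1 inhibitor. Kdr had 116 and 146 UMIs, 48.1 and 72.5 CPM, a ratio of 0.59 (0.23 to 0.96). Flt1 had 71.7 and 98.8 CPM, or 0.46 (0.16 to 0.76). The sum of 10 EC markers in the same nuclei was 434 and 594 CPM, with 9 of 10 higher and none at 0. In the cluster low in mitochondrial RNA this sum was 233 and 358 CPM and in the Acta1 cluster 860 and 836 CPM, where Flt1 stood at 170 and 163 CPM and Kdr at 114 and 141 CPM. With the same mix of clusters the ratios were 0.25 for Kdr and 0.14 for Flt1. The part of EC RNA in these values was not tested. Nrp1 was lower, 279 and 219 CPM, or -0.35 (-0.52 to -0.17), and ranged from -0.40 to -0.12 under other processing. Cardiomyocyte genes were also split by span into 5 groups. The group with the longest spans, which holds Nrp1, Flt1 and Nrp2, had a median ratio of -0.30, with 24.9% called lower and 2.44% higher. The part of length in the Nrp1 ratio was not tested. Of 6 genes tested in cardiomyocytes, 1 was called higher, Kdr, and 0 lower, against 9.98% and 10.5% of 6773 genes. The Kdr ratio was 0.18 with doublets kept, under the fold.

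In fibroblasts the ligands were alike in the libraries: ratios were -0.08 for Vegfa, -0.02 for Vegfb, -0.02 for Vegfc and -0.06 (-0.35 to 0.22) for Pgf. None of 8 genes tested was called, against 6.21% and 4.3% of 8758 genes. In the fibroblast cluster led by Cilp and Myoc, Nrp1 stood at 170 and 244 CPM, or 0.52 (0.21 to 0.84), from 137 and 220 UMIs, the 1 called of 3 tested (6.91% of 4023 genes were called higher there and 9.12% lower). In the clusters led by Rgs17 and Msc and by Inmt and Nkain2 it had -0.09 (-0.31 to 0.13) and 0.07 (-0.22 to 0.35), and in the cluster led by Wif1 and Chad 31 and 45 UMIs, too few to count. The share of all genes called was not counted in these other clusters, and the Cilp cluster is given as one with a call. Nrp1 in MPs had 0.28 (0.11 to 0.46) and Nrp2 -0.30 (-0.59 to -0.01), with 0 of 4 called (7.15% and 7.79% of 5302 genes). Both neuropilins thus differed in the same direction in MPs as in ECs. In mural cells, where pericyte-like nuclei carried it at 549 and 601 CPM, the Nrp1 ratio was 0.09, with 0 of 2 called (7.52% and 8.56% of 2687 genes). T cells, B cells and glial cells held under 100 UMIs of each of the 9 genes over both libraries. The highest count there was that of Nrp1 in T cells, with 51 and 40 UMIs, or 218 and 203 CPM.

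In mesothelial cells Kdr was lower, -0.28 (-0.45 to -0.10), as in ECs, but 0.092 with every nucleus thinned to 500 UMIs, while Nrp2 was higher, at 61.8 and 88.7 CPM or 0.51 (0.01 to 1.05) from 49 and 92 UMIs. Nrp2 was the 1 of 4 called there (5.32% of 4440 genes higher and 5.18% lower). After thinning, Nrp2 held under 100 UMIs there and was not counted. The median depth was 1302 and 1724 UMIs. In adipocytes Vegfa had a ratio of 0.17, and Nrp1 one of 2.14 (1.80 to 2.48), from 501 CPM (431-580) to 2212 CPM (1840-2637). The PD-1 inhibitor value rests on 16 nuclei and 124 UMIs, of which 1 nucleus gave 35, and without the nucleus richest in Nrp1 in each library the levels were 479 and 1873 CPM. In adipocytes 14.9% of 770 genes were called higher and 26.5% lower, and 1 of 2 of the 9 genes was called higher.

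The wider VEGF pathway in ECs, followed in 4 lists written from general knowledge with earlier results of these data known, held few called genes. Of the list of ligand processing and regulation 8 of 12 genes had enough UMIs, of which 0 were called higher and 1 lower (median ratio -0.01). Its called gene was Egln3, an oxygen-sensing prolyl hydroxylase, at 30.2 and 20.02 CPM, or -0.59 (-1.10 to -0.10). Egln3 was lower in cardiomyocytes too, at -0.56 (-0.90 to -0.24), while mural cells had 0.37 (-0.44 to 1.17), so the value was not particular to ECs. Hif1a, a hypoxia-induced regulator of Vegfa, had -0.23 (-0.55 to 0.09), Epas1, its endothelial relative, 0.13 (0.02 to 0.25), and Vegfd, a further Flt4 ligand, 0.07 (-0.21 to 0.36). In cardiomyocytes Hif1a stood at 175 and 107 CPM, or -0.71 (-0.96 to -0.47), where 10.5% of 6773 genes were called lower. That ratio was not recomputed with the same mix of clusters. Of the receptor signalling list 24 of 26 could be tested in ECs and 0 were called in either direction (median -0.11). In it Plcg1, which relays the Kdr signal, had -0.21 (-0.39 to -0.02), and Nos3, the endothelial nitric oxide synthase, 0.09 (-0.02 to 0.20). Ptprb, a phosphatase of endothelial receptors, stood at 1652 and 1444 CPM, or -0.19 (-0.25 to -0.13).

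Of the genes known to be induced by VEGF, 12 of 16 could be tested, with 0 called higher and 2 lower (median -0.23, against 0.003 over all genes). Nr4a1, an immediate early nuclear receptor, stood at 142 and 41.8 CPM, or -1.76 (-2.07 to -1.47). It was lower in other types too, by ratios of -1.78 in fibroblasts, -1.18 in cardiomyocytes, -1.85 in mesothelial cells and -1.56 in MPs, so the value was not particular to ECs, and within ECs it ran from -0.41 in capillary-like to -3.16 in valve-like ECs. Dll4, a Notch ligand of arterial and tip ECs, stood at 98.4 and 68.7 CPM, or -0.52 (-0.79 to -0.25), with -0.28 in capillary-like, -0.16 in endocardial-like and -0.32 in arterial-like ECs, and, from 52 and 26 UMIs, -0.64 (-1.39 to 0.055) in lymphatic-like and, from 23 and 7 UMIs, -1.48 (-3.01 to -0.28) in valve-like ECs. Esm1, a tip cell gene, had 14 and 1 UMIs and Apln, the apelin ligand, 14 and 25, too few to count. Of neuropilin partners 9 of 12 could be tested and 0 were called (median -0.13), with Plxnd1, a semaphorin receptor, at -0.04. Under 100 UMIs, and so not counted, 4 more genes had intervals that left 0: Adamts3, a protease that processes VEGF-C, from 32 and 59 UMIs, Egr3, an immediate early factor, from 64 and 15, Kcne3, a potassium channel subunit, from 22 and 7, and Plxna3, a semaphorin receptor, from 24 and 5. Esm1 had such an interval too. These counts stand beside the 6.73% and 5.1% of all genes in ECs given above.

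Across the 21 named clusters, both libraries summed, each gene had neighbours of like pattern among 8946 genes with at least 500 UMIs. The measure was Pearson's r of log2 (CPM + 10), a description only, since the clusters share libraries and depth. Closest to Vegfa were Acyp2 (0.90), Ppara (0.89), a regulator of fatty acid oxidation, and Adhfe1 (0.89), and closest to Vegfb were Phyh (0.93), Ndufs1 (0.91), a subunit of respiratory complex I, and Suclg1 (0.91), of the citric acid cycle. Flt1 was closest to Ptprb (0.91), Cd93 (0.91) and Samd12 (0.90), Kdr to Sh3tc2 (0.91), Adgrf5 (0.85) and Ets2 (0.85), and Flt4 to D5Ertd615e (0.91), the lymphatic marker Mmrn1 (0.86) and Galnt18 (0.85). For Vegfc they were Mcc (0.81), Trpm3 (0.80) and Mecom (0.79), and for Pgf Lrrc32 (0.83), Enpp3 (0.83) and Tril (0.81). Nrp2 was nearest to Sult1a1 (0.83), Slfn3 (0.82) and Usp18 (0.81). Nrp1 had no close neighbour, with Kcnc2 (0.69), Cyb5r1 (0.67) and Luzp1 (0.66) at the top. Among the 9 genes themselves the nearest pairs were Flt4 and Nrp2 (0.76) and Kdr and Flt4 (0.72).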

How the data were processed

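Nuclei of mouse hearts were profiled with the GEXSCOPE single-nucleus kit (Singleron) on an Illumina NovaSeq. The authors deposited raw UMI counts per gene and barcode, 1 matrix for the control and 1 for the PD-1 inhibitor library. The submitters' processing notes name GRCm38 (mm10), and the aligner, counter and annotation are not given in the sources used here. The genes and lists were chosen with earlier results of these data known.

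Barcodes needed 200 genes or more and no more than 20% of UMIs from mitochondrial genes, and Scrublet doublets were removed (5.85% and 3.87%). The libraries were clustered together with scanpy 1.11.5 and leidenalg 0.10.2 (2000 variable genes without the 9 genes, scaled, 30 principal components, 15 neighbours, resolution 1, best of 20 seeds); the scaling and the seeds were set after a first clustering had been seen. Clusters were named from marker lists, with at least 3 markers needed, or else described by leading genes or mitochondrial RNA. A gene among those that lead a cardiomyocyte cluster is not reported here. Counts were summed per type and library, 0.5 UMI was added for log2 ratios, and intervals (95%) are exact Poisson for levels, Clopper-Pearson for shares and conditional binomial for ratios. PCR and free RNA are not covered by them. With 1 library per group no test was made. A value was recomputed after thinning to 500 UMIs per nucleus, which left out no nucleus. Spans and exon lengths come from GENCODE M21, promoters from RefSeq. The ratio computation was tested on simulated data.

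All 9 genes are reported. From the lists, genes past the fold in ECs, with the minimum of 100 UMIs, whose interval left 0 are named, as are Hif1a, Epas1, Plcg1, Nos3, Ptprb, Dll4, Esm1, Apln, Plxnd1 and Vegfd, and for each of the 9 genes the 3 of most like pattern. Alternatives covered filters, doublets, clustering, scaling, thinning, and the mix of clusters and depths.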

Additional observations from a re-analysis of the deposited data

Results flagged for a closer look

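For Flt1, Kdr, Nrp1 and Nrp2, the log2 ratio of PD-1 inhibitor over control lay above 0 in at least 1 cell type and below 0 in another. The counting intervals left 0 in each. With 1 library per group the difference between types was not tested. The share of all genes that meet this rule was not counted, so meeting it does not set Flt1, Kdr, Nrp1 and Nrp2 apart from other genes. Flt1 stood at -0.24 in ECs and 0.46 in cardiomyocytes. Kdr stood at -0.32 in ECs and -0.28 in mesothelial cells, against 0.59 in cardiomyocytes. Over the settings below, the lowest cardiomyocyte values were 0.14 for Flt1 and 0.18 for Kdr, and the highest mesothelial value of Kdr was 0.092. The sum of 10 EC markers in these cardiomyocytes was 434 and 594 CPM. Nrp1 stood at 0.087 in ECs, 0.28 in MPs and 2.14 in adipocytes, against -0.35 in cardiomyocytes. Over the settings its cardiomyocyte value ranged from -0.40 to -0.12. Nrp2 stood at -0.42 in ECs and -0.30 in MPs, against 0.51 in mesothelial cells.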

How the results depend on the processing

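Recomputing 59 log2 ratios gave 774 values, of which 741 stayed within the counting interval of the reported ratio and 33 left it. None of the ratios past the fold of 0.5 turned, and 45 values of smaller ratios had the other sign. With the same mix of clusters in both libraries, the EC ratios became -0.11 for Vegfc, -0.16 for Flt1, -0.10 for Kdr, -0.0073 for Flt4 and -0.18 for Nrp2, that of Vegfa in cardiomyocytes -0.091, and the median of the ligand processing list -0.11. After thinning to 500 UMIs, Flt1 in ECs stood at -0.14, Vegfa in cardiomyocytes at -0.20 and that list at -0.14, and 1 of the 9 genes was called lower in ECs. Without nuclei that held markers of another type, 268 and 163 ECs and 336 and 217 cardiomyocytes remained, with Kdr at -0.052 and Nrp1 at 0.56 in ECs, Vegfa at 0.035 and Vegfb at 0.57 in cardiomyocytes, and 1 gene called lower in ECs. At most 5% mitochondrial UMIs gave -0.13 for Vegfa and -0.046 for Vegfb in cardiomyocytes, and the mean over nuclei -0.26 for Vegfa. The same mix of depths called 1 gene lower in ECs, and a log2 fold of 1 called 0 higher. In none of these settings was the share of all genes called counted, so the counts of called genes have nothing to be read against. The setting without the 20% of nuclei richest in other types' markers was chosen after seeing the data and moved none of the ratios of the 9 genes. Why a value moved between settings was not tested. Values with under 100 UMIs in a setting were left out.

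Over these settings Vegfb in ECs ranged from 0.51 to 0.76 and Nrp2 from -0.53 to -0.18. No paired analysis was possible because each group is 1 library, and for the same reason no replicate could be left out. Genes under 100 UMIs, such as Pgf in EC subtypes, were too shallow to compare.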
